A study of Arabidopsis thaliana with 4 samples.

Results

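The WRKY transcription factors of Arabidopsis were followed in rosette leaves of plants that over-express TaSK5, a GSK3/Shaggy-like kinase of wheat. The members were 36 WRKY loci, found by locus number as 1 probe each among the 21500 gene probes of the array. The list was drawn up with earlier results of these arrays known, so shares of members beside those of all genes are a description. The overexpressing plants were OX17 and OX7, independent transformants of the first transgenic generation (T1) in the Col-0 background, with TaSK5 under the 35S promoter, a strong promoter of viral origin. The controls were Col-0 wild-type plants. All plants were 3 weeks old and untreated, and were kept at 22 °C in days of 16 h light and nights of 8 h. RNA of each transformant was hybridised with wild-type RNA on 2 two-colour arrays with the dyes exchanged: the transformant was the Cy5 channel of replicate 1 and the Cy3 channel of replicate 2. The 2 arrays of a transformant hold the same RNA pair and count as 1 replicate, so n = 2 plants, and this small number limits precision throughout. Whether both array pairs received the same wild-type RNA, and from how many plants, is not in the labels. The TaSK5 transcript itself was not analysed here.

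WRKY proteins are plant transcription factors named for a conserved stretch of their DNA-binding domain, which binds the W-box in promoters. Group I members carry a pair of such domains, and groups II and III carry a single one with different zinc fingers. Many WRKY genes are themselves switched on within minutes by pathogens, wounding, touch or oxidative stress, and they then raise or repress defence, senescence and nutrient genes, often in networks in which members repress one another. GSK3-like kinases meet the family in brassinosteroid signalling, where the Arabidopsis kinase BIN2 phosphorylates WRKY54.

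Of the 36 members, 35 were well above background in all 8 channels and entered the tests, and none of their spots was flagged or saturated. WRKY29, which acts with WRKY22 below the MAP kinase cascade of flagellin sensing, was above background in 2 of 4 transformant channels and 3 of 4 wild-type channels and was left out. Over all probes, between 86.4% and 95.9% were above background in the transformant channels, and between 88.9% and 96.0% in the wild-type channels. All 6 leaf marker probes were above background in all 8 channels, with RBCS1A and RCA saturated on all 4 arrays and GAPA on 2. The leaf markers had a median log2 ratio of transformant over wild type of -0.33 in OX17 and 0.47 in OX7. CA1, a carbonic anhydrase gene, had means of -2.31 in OX17 and -0.32 in OX7. The saturated probes of RCA and RBCS1A had means of 0.19 and 0.10 in OX17 and 0.80 each in OX7. The 6 root markers had medians of -0.09 in OX17 and 0.12 in OX7. Among them the beta-glucosidase gene PYK10 stood at 2.47 and 2.31 in OX17 and 1.40 and 1.32 in OX7. SCR went the other way and was lower on all 4 arrays, with means of -0.995 in OX17 and -0.399 in OX7. Means of PRP3, LRX1, COBL9 and EXPA7 over both transformants lay between -0.011 and 0.077. The part of cell or tissue make-up in the members' values was not tested. Log2 ratios spread about 2 times as widely on the OX17 arrays, with an SD over all genes of 0.53 and 0.52, as on the OX7 arrays, with 0.26 and 0.27. Values below are log2 ratios of transformant over wild type, so 1 stands for 2-fold, unless channel signals are named. Signals of different probes are not comparable, so no member's level is set against another's.

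Members stood mostly above wild type, and more so in OX17 than in OX7. The mean log2 ratio was above 0 for 26 members and below 0 for 9, with a median of 0.24, beside a median of -0.01 over all genes. The list was drawn up with earlier results of these arrays known. WRKY loci outside the list that passed the filter had a median of -0.01. In OX17 the members' median was 0.48 and in OX7 it was 0.06. On all 4 arrays 14 members were higher, where 12.4% of all genes were, and 2 members, WRKY46 and WRKY54, were lower, where 12.2% of all genes were. At least 2-fold higher on all 4 arrays was 1 member, WRKY75, where 0.249% of genes were, and 0 members were at least 2-fold lower, where 0.0325% of genes were. In whole leaves more cells of a type and more RNA per cell cannot be told apart.

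None of the members passed. When limma was run on the transformant means, 0 of 35 members had a Benjamini-Hochberg adjusted p under 0.05, as did 0% of the 18854 genes tested in each direction, and the members' adjusted p lay between 0.846 and 0.997. An unadjusted p under 0.05 was reached by 7 members with a positive mean, where 2.61% of genes did so, and by 1 with a negative mean, WRKY46, where 1.76% of genes did so. The 7 were WRKY75, WRKY53, WRKY6, WRKY8, WRKY11, WRKY15 and WRKY26. All differences below are therefore given as measured values. With median centring of each array in place of loess, WRKY18, WRKY26, WRKY45, WRKY48 and WRKY54 no longer had the same direction on all 4 arrays, and WRKY69 and WRKY71 were then higher on all 4.

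**Figure D1:**
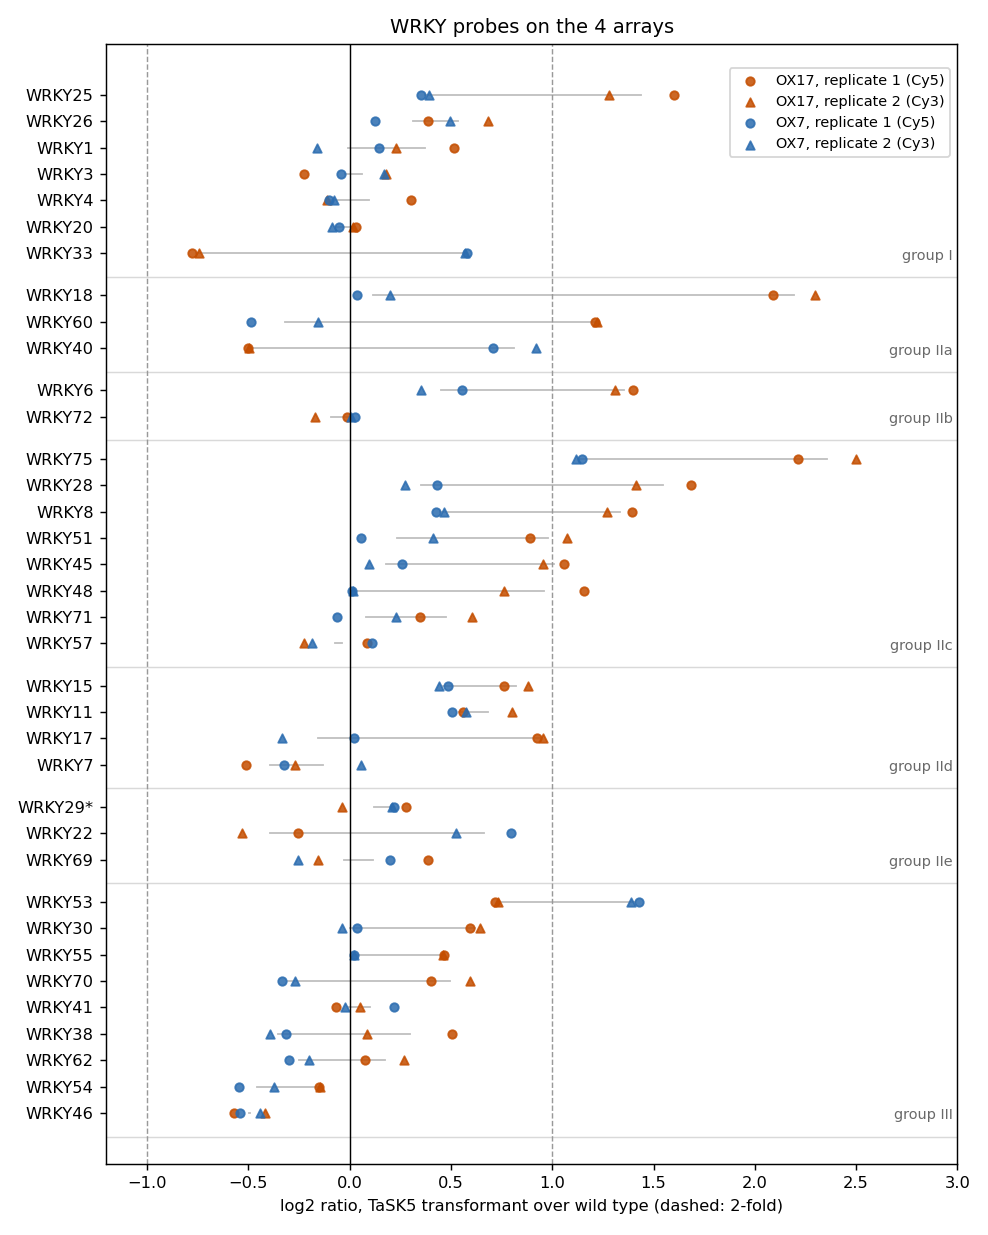
Log2 ratio of transformant over wild type for each of the 36 WRKY probes on the 4 arrays, ordered by structural group; colours mark the transformant, circles replicate 1 (transformant in Cy5), triangles replicate 2 (transformant in Cy3), grey lines join the transformant means, and the asterisk marks WRKY29, which was not well above background. WRKY75 is the only member beyond the 2-fold line on all 4 arrays, and WRKY33, WRKY40 and WRKY22 lie below 0 in OX17 and above 0 in OX7.

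The plot of all members by array shows how close the repeat hybridisations lay. Swapped arrays differed by a median of 0.19 across members in OX17, with a largest gap of 0.54 for WRKY69, and by a median of 0.16 in OX7, with a largest gap of 0.45 for WRKY69. The gap between the transformant means exceeded both of these gaps in 25 of 35 members, where 41.4% of genes did so. The gaps between swapped arrays hold hybridisation and dye error only, not the spread between plants of 1 kind.

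Among the WRKY genes known from leaf senescence and phosphate supply, WRKY75 stood highest. WRKY75 (AT5G13080) promotes senescence and is induced by phosphate starvation. Its log2 ratios were 2.21 and 2.50 on the OX17 arrays and 1.15 and 1.12 on the OX7 arrays. All 4 values lay above 2-fold, and the OX17 values lay above both OX7 values. Without background correction WRKY75 no longer reached 2-fold on both OX7 arrays. The mean was 1.74 ± 0.87 (SD, n = 2 transformants), or 3.35-fold (limma adjusted p = 0.846).

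WRKY53 (AT4G23810), an activator of early senescence, was the other member at least 2-fold higher in OX7. It had log2 ratios of 0.72 and 0.73 in OX17 and 1.43 and 1.39 in OX7, the reverse order of WRKY75. Its mean was 1.07 ± 0.48 (limma adjusted p = 0.846). WRKY6 (AT1G62300), a senescence-associated factor that represses the phosphate exporter gene PHO1, had 1.40 and 1.31 in OX17 and 0.55 and 0.35 in OX7. WRKY45 (AT3G01970), an activator of phosphate uptake, had 1.06 and 0.95 in OX17 and 0.26 and 0.10 in OX7. Both were higher on all 4 arrays and reached their larger values in OX17, with means of 0.90 ± 0.64 for WRKY6 and 0.59 ± 0.59 for WRKY45.

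WRKY54 (AT2G40750) and WRKY70 (AT3G56400) are related group III factors that delay senescence, act in salicylic acid signalling and, with WRKY46, work beside the brassinosteroid factor BES1 in growth. WRKY54 was lower on all 4 arrays, with means of -0.15 in OX17 and -0.46 in OX7, though not with median centring. WRKY70 had means of 0.50 in OX17 and -0.30 in OX7, so the pair had opposite signs in OX17. WRKY46 (AT2G46400) was the member with the lowest mean, with all 4 arrays between -0.57 and -0.42. It was also the most alike in the transformants, with means of -0.50 in OX17 and -0.49 in OX7 (limma adjusted p = 0.846). WRKY57, which represses jasmonate-induced senescence, stood at -0.05 ± 0.02, and WRKY55, a promoter of senescence whose locus neighbours WRKY54, at 0.24 ± 0.31 with both OX7 arrays at 0.02.

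The 3 group IIa genes, related factors that bind one another and mostly repress defence and abscisic acid genes, did not go one way. WRKY18 (AT4G31800) had log2 ratios of 2.09 and 2.30 in OX17 and 0.03 and 0.20 in OX7. It was 4.57-fold higher in OX17 and 1.08-fold higher in OX7, where median centring placed it below wild type. WRKY60 (AT2G25000) had 1.21 and 1.22 in OX17 and -0.49 and -0.15 in OX7. WRKY40 (AT1G80840) had -0.50 and -0.50 in OX17 and 0.71 and 0.92 in OX7, with the signs of WRKY60 turned round. In no case did the OX17 and OX7 arrays overlap. The means over both transformants were 1.15 ± 1.47 for WRKY18, 0.45 ± 1.09 for WRKY60 and 0.16 ± 0.93 for WRKY40, each with an SD above the mean.

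In group I, WRKY25 and WRKY33 parted in OX17. WRKY33 (AT2G38470), the activator of camalexin synthesis phosphorylated by MPK3 and MPK6, had log2 ratios of -0.78 and -0.74 in OX17 and 0.58 and 0.57 in OX7. WRKY25 (AT2G30250), a relative of WRKY33 with roles in heat and salt tolerance, had 1.60 and 1.28 in OX17 and 0.35 and 0.39 in OX7. WRKY25 was thus 2.71-fold higher in OX17 on the arrays on which WRKY33 was 1.69-fold lower. WRKY26, which acts with both in heat tolerance, stood at 0.42 ± 0.16 and was higher on all 4 arrays with loess but not with median centring. The other group I members stayed near wild type, with means of 0.18 for WRKY1, 0.02 for WRKY3, 0.00 for WRKY4 and -0.02 for WRKY20.

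Group IIc held 6 of the 14 members that were higher on all 4 arrays, the largest number of any structural group. Besides WRKY75 and WRKY45, WRKY28 (AT4G18170), an activator of the salicylic acid synthesis gene ICS1, had log2 ratios of 1.68 and 1.41 in OX17 and 0.43 and 0.28 in OX7. WRKY8 (AT5G46350), known from salt tolerance and virus resistance, had 1.39 and 1.27 in OX17 and 0.43 and 0.47 in OX7. WRKY51 (AT5G64810), which mediates repression of jasmonate responses, had 0.89 and 1.07 in OX17 and 0.06 and 0.41 in OX7. All 3 had every OX17 value above every OX7 value, with means of 0.95 ± 0.84 for WRKY28, 0.89 ± 0.63 for WRKY8 and 0.61 ± 0.53 for WRKY51. WRKY48, a repressor of basal defence, was higher on all 4 arrays only by the narrowest margin, with OX7 arrays at 0.01 and 0.02 and an OX17 mean of 0.96. WRKY71, known from shoot branching and flowering, stood at 0.28 ± 0.28, with the OX7 arrays on both sides of 0.

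The calmodulin-binding group IId factors included the closest pair of transformant values among the higher members. WRKY11 (AT4G31550), a negative regulator of basal resistance, had log2 ratios of 0.56 and 0.80 in OX17 and 0.51 and 0.58 in OX7. These ranges overlapped, and the mean was 0.61 ± 0.10, or 1.53-fold (limma adjusted p = 0.846). WRKY15 (AT2G23320), known from growth under osmotic and oxidative stress, had 0.76 and 0.88 in OX17 and 0.48 and 0.44 in OX7, with a mean of 0.64 ± 0.25. WRKY17 (AT2G24570), which acts redundantly with WRKY11, had 0.92 and 0.95 in OX17 and 0.02 and -0.33 in OX7, so it lay above WRKY11 in OX17 and below it in OX7. WRKY7, of the same subgroup, stood at -0.26 ± 0.18 with 1 OX7 array above 0.

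WRKY22 (AT4G01250), a group IIe factor of flagellin signalling, had log2 ratios of -0.26 and -0.53 in OX17 and 0.80 and 0.53 in OX7. Its transformants did not overlap, as with WRKY33 and WRKY40. The defence factors WRKY38 and WRKY62, jasmonate- and salicylate-induced repressors of basal resistance, both had positive values on the OX17 arrays and negative ones on the OX7 arrays, with means over both of -0.03 ± 0.46 and -0.04 ± 0.30. WRKY30, an oxidative stress gene, had means of 0.62 in OX17 and 0.00 in OX7. The group IIe gene WRKY69, the group IIb gene WRKY72, known from basal defence, and the group III gene WRKY41, known from seed dormancy and defence, had means of 0.04, -0.04 and 0.05.

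By structural group, the median of the members' mean log2 ratios was 0.60 in group IIc (8 members), 0.50 in group IId (4), 0.45 in group IIa (3), 0.43 in group IIb (2), 0.09 in group IIe (2 measured), 0.05 in group III (9) and 0.02 in group I (7). Groups IIc and IId held 8 of the 14 members higher on all 4 arrays and 0 of the 2 lower ones. Both lower ones, WRKY46 and WRKY54, were in group III, which also held 2 of the higher ones, WRKY53 and WRKY55. These are descriptions of small groups, with no test between them.

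Taken singly, each transformant gave a different set of members. On both OX17 arrays 7 members were at least 2-fold higher, where 2.63% of genes were, namely WRKY75, WRKY18, WRKY28, WRKY25, WRKY6, WRKY8 and WRKY60, and 0 were at least 2-fold lower, where 2.04% were. On both OX7 arrays 2 were at least 2-fold higher, WRKY53 and WRKY75, where 0.492% of genes were, and 0 were at least 2-fold lower, where 0.0963% were. Scale normalisation between arrays, which evens out the wider spread of OX17, left 3 members at 2-fold in OX17, WRKY75, WRKY18 and WRKY28, and gave 3 in OX7, WRKY53, WRKY75 and WRKY40. By direction alone, 23 members were higher on both OX17 arrays, beside 31.4% of genes, and 7 lower, beside 33.2%. In OX7, 18 were higher on both arrays, beside 30.2% of genes, and 8 lower, beside 31.1%.

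**Figure D2:**
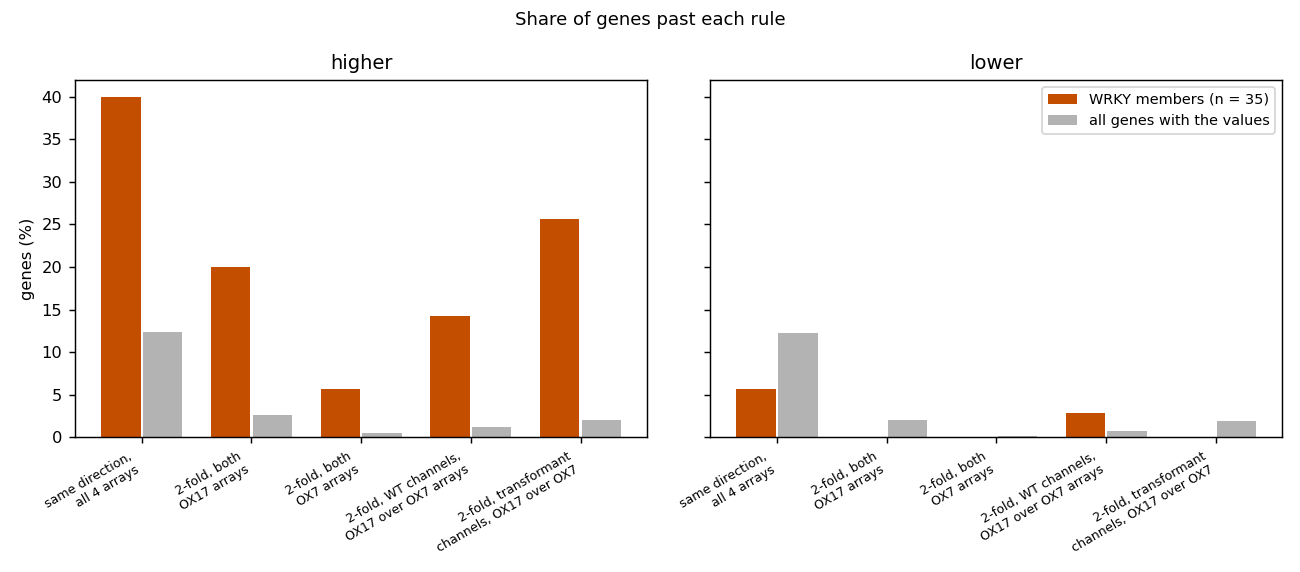
Percent of the 35 measured WRKY members (orange) and of all genes with the values needed (grey) past each rule, higher on the left and lower on the right; bars start at 0. Members reach 40.0% for the same direction upwards on all 4 arrays against 12.4% of genes, and 0% downwards for the 2-fold rules on the OX17 arrays, on the OX7 arrays and in the transformant channels. The member list was drawn up with earlier results of these arrays known.

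The transformants were then set against each other through their ratios. Ratios were at least 2-fold apart without overlap of the arrays in 9 members. Of these, 6 were higher in OX17, WRKY60, WRKY18, WRKY75, WRKY28, WRKY17 and WRKY25, where 2.77% of genes were, and 3 were lower in OX17, WRKY33, WRKY40 and WRKY22, where 3.12% were. WRKY18 had the widest gap, with an OX17 ratio 2.08 above that of OX7 on the log2 scale, and WRKY33 and WRKY40 were 1.33 and 1.31 below. Without background correction 6 members were at least 2-fold apart, and with scale normalisation 6, with WRKY17 and WRKY28 in neither set. There is 1 plant on each side, so these differences have no test. The labels do not say whether the ratios of both plants rest on the same wild-type RNA. Wild-type signals of several members differed between the array pairs, as given below.

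Both arrays of OX17 lay on one side of wild type and both arrays of OX7 on the other in 9 members. WRKY60, WRKY70, WRKY38, WRKY62 and WRKY20 were above wild type in OX17 and below it in OX7, a pattern held by 7.99% of genes. WRKY33, WRKY40, WRKY22 and WRKY72 were below wild type in OX17 and above it in OX7, as were 9.33% of genes. WRKY20 and WRKY72 lay close to 0 on every array, the furthest value being -0.173 for WRKY72 in OX17. With median centring, WRKY20, WRKY22, WRKY62 and WRKY72 no longer showed opposite signs, and WRKY17, WRKY18 and WRKY30 did.

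**Figure D3:**
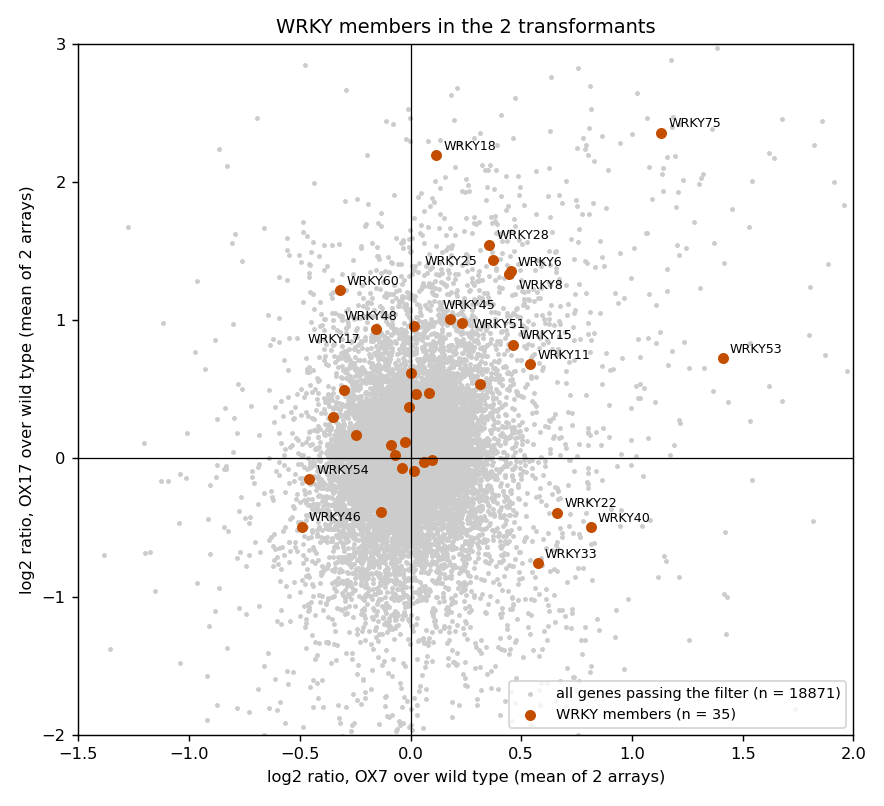
Mean log2 ratio over wild type in OX17 (vertical axis) against OX7 (horizontal axis), for all genes passing the filter (grey) and the 35 measured WRKY members (orange, named where they lie far from 0); 90 genes lie beyond the axes. WRKY75 and WRKY53 are high on both axes, WRKY18 is high in OX17 alone, and WRKY33, WRKY40 and WRKY22 sit at lower right.

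The channels behind these ratios showed that wild-type signals of several members differed between the array pairs. For this the log2 signal of each channel was compared between OX17 and OX7 arrays of the same dye orientation. In the wild-type channels 5 members were at least 2-fold higher on the OX17 arrays in both orientations, WRKY40, WRKY53, WRKY33, WRKY15 and WRKY22, where 1.23% of genes were. In the same channels 1 member, WRKY60, was at least 2-fold lower, where 0.792% of genes were. In the transformant channels 9 members were at least 2-fold higher in OX17 than in OX7, where 2.05% of genes were, and 0 were lower, where 1.93% were. The 9 were WRKY53, WRKY40, WRKY18, WRKY15, WRKY75, WRKY28, WRKY6, WRKY30 and WRKY25.

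WRKY40 had the largest difference among members in the wild-type channels, and WRKY53 in the transformant channels. Its log2 signal was 10.88 and 10.67 in OX17 and 11.38 and 11.17 in the wild type beside it, against 8.98 and 8.58 in OX7 and 8.28 and 7.66 in the wild type beside that. The wild-type signal was thus 9.89-fold higher on the OX17 arrays, and the transformant signal 3.98-fold higher. Both plants on the OX17 arrays were high and both on the OX7 arrays low, so the opposite ratios of WRKY40 sit on a difference between array pairs larger than either ratio.

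WRKY33 followed the same order. Its log2 signal was 10.59 and 11.09 in OX17 and 11.37 and 11.83 in its wild-type partner, against 10.20 and 9.93 in OX7 and 9.62 and 9.36 in its wild-type partner. The wild-type signal was 4.32-fold higher on the OX17 arrays and the transformant signal 1.71-fold higher. For WRKY22 the signal was 9.35 and 8.96 in OX17 and 9.60 and 9.49 in its wild type, against 9.39 and 8.86 in OX7 and 8.59 and 8.33 in its wild type. The transformant signals of WRKY22 were almost level, with a difference of 0.03, and the wild-type signals differed by 1.08, or 2.12-fold. Without background correction WRKY22 no longer reached 2-fold in the wild-type channels, and with median centring neither WRKY22 nor WRKY15 did.

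WRKY53 was higher than wild type within both array pairs and differed more between them. Its log2 signal was 11.43 and 11.49 in OX17 and 10.71 and 10.76 in the wild type beside it, against 9.48 and 9.36 in OX7 and 8.05 and 7.97 in the wild type beside that. The wild type of the OX17 arrays thus lay above the transformant OX7, by more than 1 on the log2 scale. The wild-type difference was 2.72 on the log2 scale, or 6.60-fold, beside a mean log2 ratio of transformant over wild type of 1.07. WRKY15 had 11.49 and 11.39 in OX17 and 10.72 and 10.51 in its wild type, against 9.93 and 9.73 in OX7 and 9.45 and 9.29 in its wild type, a wild-type difference of 2.38-fold. Plant, harvest and array pair cannot be told apart in these differences.

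**Figure D4:**
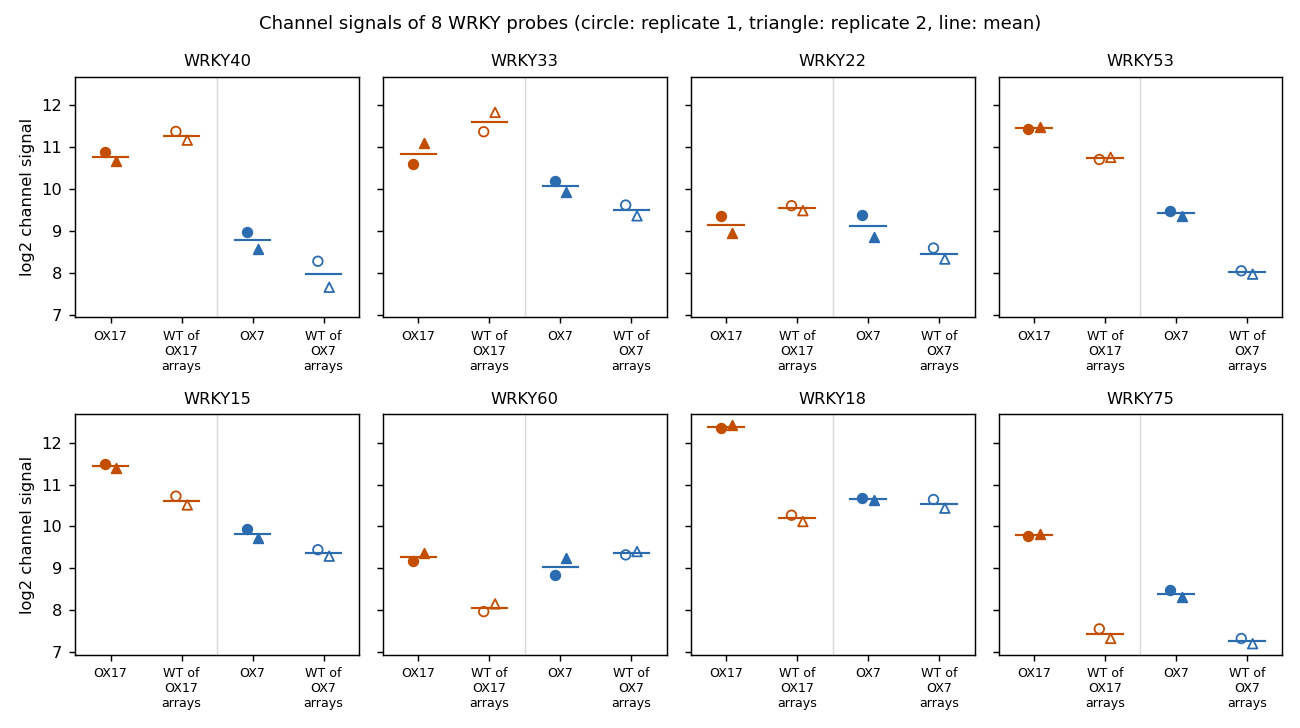
Log2 channel signal of 8 WRKY probes in OX17, its wild-type partner, OX7 and its wild-type partner (circles replicate 1, triangles replicate 2, filled for transformants and open for wild type, lines the mean of the 2 arrays). For WRKY40, WRKY33, WRKY53 and WRKY15 both channels of the OX17 arrays lie above both channels of the OX7 arrays, whereas for WRKY18 the OX17 transformant alone stands above the rest and for WRKY75 both transformants stand above both wild types, OX17 the higher.

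WRKY18, WRKY75 and WRKY60 had other channel patterns. WRKY75 had log2 signals of 9.77 and 9.83 in OX17 and 7.55 and 7.33 in its wild type, against 8.47 and 8.32 in OX7 and 7.33 and 7.20 in its wild type. The wild-type signals of WRKY75 were 1.13-fold apart and the transformant signals 2.64-fold. WRKY18 had 12.36 and 12.41 in OX17 and 10.27 and 10.12 in its wild type, against 10.68 and 10.63 in OX7 and 10.64 and 10.44 in its wild type. Only the OX17 transformant was high for WRKY18, with wild-type signals 1.27-fold lower on the OX17 arrays. WRKY60 had 9.18 and 9.38 in OX17 and 7.97 and 8.15 in its wild type, against 8.84 and 9.25 in OX7 and 9.32 and 9.40 in its wild type. Here the wild type of the OX17 arrays was the low one, 2.47-fold below that of the OX7 arrays, and the transformants differed by 0.24. WRKY25, WRKY28 and WRKY6 had wild-type differences of 0.05, 0.09 and 0.31 and transformant differences of 1.12, 1.28 and 1.21.

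Other members had smaller shifts between the array pairs. WRKY11 and WRKY46, with like ratios in both transformants, were both higher on the OX17 arrays in either channel, with transformant differences of 0.94 and 0.62 and wild-type differences of 0.80 and 0.62. WRKY70 had a wild-type difference of -0.64 and a transformant difference of 0.15, so its opposite ratios came with a shift of the wild-type channels. WRKY17 had a transformant difference of 1.04 and a wild-type difference of -0.05, and WRKY30 had 1.14 and 0.52. For WRKY48 the orientations disagreed, with wild-type differences of -0.55 on replicate 1 and 0.96 on replicate 2.

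Genes of the early touch and stress response shared the wild-type difference. Of 10 such genes 9 were measured on all 4 arrays. In the wild-type channels 7 of the 9 were at least 2-fold higher on the OX17 arrays, where 1.23% of all genes were. The list was drawn up with earlier results of these arrays known, so this count is a description. The median wild-type difference of the 9 was 1.75, beside -0.02 over all genes. The touch gene TCH4 had log2 ratios of -2.53 and -2.38 in OX17 and 1.58 and 1.45 in OX7, with a wild-type difference of 2.41. ZAT10, a zinc finger repressor of the stress response, had -2.02 and -2.12 in OX17 and 0.67 and 0.95 in OX7, with a wild-type difference of 2.98. TCH3 was higher on all 4 arrays, with a mean of 0.52, and ERF6 was lower on all 4, with a mean of -0.32. Opposite signs in the transformants were found in 7 of the 9, in the order of WRKY33, WRKY40 and WRKY22. That order was held by 9.33% of all genes. The part that sampling or handling of the plants had in the values of these WRKY members was not tested.

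**Figure D5:**
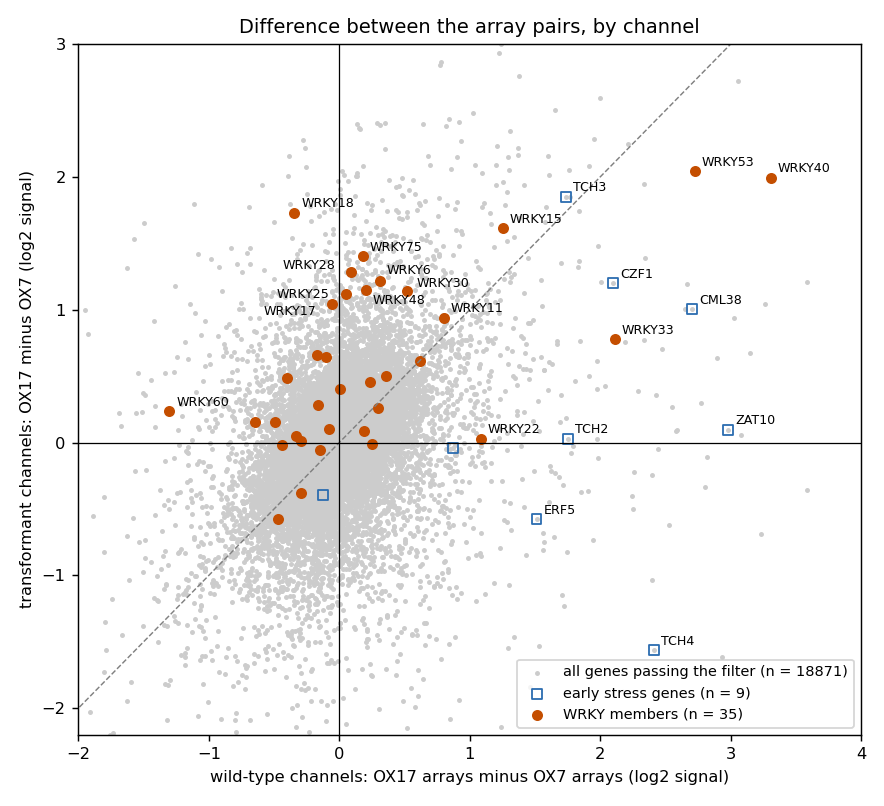
Difference in log2 signal between the array pairs, transformant channels (OX17 minus OX7, vertical axis) against wild-type channels (OX17 arrays minus OX7 arrays, horizontal axis), for all genes passing the filter (grey), 9 early stress genes (blue squares) and 35 WRKY members (orange); the dashed line marks equal differences, and 58 genes lie beyond the axes. WRKY40, WRKY53 and WRKY33 lie at right among the early stress genes, and WRKY18, WRKY75 and WRKY28 lie near 0 on the wild-type axis and above 1 on the other.

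Partners and reported targets of WRKY factors were read from lists of other genes, also drawn up with earlier results of these arrays known. Of 14 MAP kinase and VQ partner genes, 3 lay above and 1 below wild type on all 4 arrays. Over all genes the shares were 12.4% and 12.2%. The median of the 14 was 0.09. MKK9, a MAP kinase kinase upstream of MPK3 and MPK6, stood at 0.78 and was higher on all 4 arrays, and MKK4, of the flagellin cascade, was lower on all 4 at -0.43. MPK11 stood at 0.49, and JAV1, a VQ protein that represses jasmonate defence and binds WRKY51, stood at 0.42, each with 1 OX7 array below 0.

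Of 15 listed target genes, 12 were measured, with a median of 0.39. On all 4 arrays 4 of these lay above and 1 below wild type, beside 12.4% and 12.2% of all genes. The camalexin synthesis genes CYP71A13 and PAD3, targets of WRKY33, had log2 ratios of 1.92 and 2.01, and of 2.09 and 2.51, in OX17, in which WRKY33 itself was below wild type. In OX7, in which WRKY33 was above wild type, CYP71A13 had 0.45 and 0.54 and PAD3 -0.20 and 0.35. Between the array pairs WRKY33 had a wild-type difference of 2.11 and a transformant difference of 0.78, so its signal was higher in OX17 than in OX7. CYP71A13 and PAD3 had wild-type differences of 0.11 and 0.15 and transformant differences of 1.57 and 2.37. The ethylene synthesis genes ACS6 and ACS2, also reported as targets of WRKY33, differed from each other. ACS6 had the signs of WRKY33, with -2.28 and -2.09 in OX17 and 0.48 and 0.50 in OX7, and a wild-type difference of 1.94. ACS2 was above wild type on all 4 arrays, with a mean of 0.65. FRK1, a receptor kinase gene used as a readout of flagellin signalling through WRKY22 and WRKY29, had 1.70 and 1.81 in OX17 and 0.30 and 0.47 in OX7. ERF109, a redox-responsive factor gene reported as a target of WRKY18 and WRKY40, had -2.05 and -2.25 in OX17 and 0.30 and 0.33 in OX7, with a wild-type difference of 3.14. Neither SAG12 at 0.06, a late senescence gene reported as a target of WRKY53, nor PHT1;1 at -0.10, the phosphate transporter gene reported as a target of WRKY45, lay far from wild type.

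The remaining WRKY loci of the array were counted by the same rules. Of 35 further WRKY loci on the array, 30 passed the filter, with a median of -0.01. On all 4 arrays 1 was higher, where 12.4% of all genes were, and 1 lower, where 12.2% were. Of the 29 measured on all 4 arrays, 0 were at least 2-fold higher or lower in the wild-type channels. Over all genes these shares were 1.23% and 0.792%, so 0 of 29 lies near them. The largest mean among them was that of WRKY47, a group IIb factor, with log2 ratios of 1.24 and 0.94 in OX17 and 0.01 and -0.18 in OX7. WRKY39, higher on all 4 arrays, stood at 0.30, WRKY50, a partner of WRKY51 in jasmonate repression, at -0.25 and WRKY19 at 0.23. The member list had been drawn up with earlier results of these arrays known, so its counts against these loci are a description.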

How the data were processed

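Per the file headers, the deposited scanner files give each spot's mean and background intensity in both channels, read with Agilent Feature Extraction 7.5.1, and a log10 ratio (Cy5 to Cy3) from the same program. The authors also deposited a table of processed log2 ratios. The submitters' processing notes name limma. How that table was background-corrected, normalised or centred is not given in the sources used here. Against the scanner values its columns behaved as log2 ratios of Cy5 to Cy3 (r between 0.992 and 0.999), with medians of -0.00543 and 0.00486 for OX17 replicates 1 and 2 and -0.00408 and 0.00358 for OX7 replicates 1 and 2.

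The intensities were passed through limma 3.58.1 (R 4.3.3) with normexp (offset 50) and loess within arrays with 1075 control spots at weight 0, and ratios were turned to transformant over wild type by the dyes in the labels. Loess sets the typical ratio to 0, and normexp shrinks ratios of dim spots. Flagged spots (60 to 173 an array) were left out. Probes well above background in all 4 transformant or all 4 wild-type channels were kept, and 18854 genes were tested (lmFit and eBayes, two-sided, 2 transformant means against 0, Benjamini-Hochberg, threshold 0.05). With 2 plants, p-values rest on the spread between the 2 transformant ratios, which eBayes draws towards that of all genes. The prior had 2.00 degrees of freedom and the residual 1. That spread also holds any difference between the wild-type RNAs, and it covers no further plants. Channel signals came from loess ratios and Aquantile intensities. The test was checked on simulated data. Alternatives changed background correction, normalisation, filter, source of ratios and unit of replication, or left out 1 array.

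Per-array values are given for members with the same direction on all 4 arrays and a mean of at least 1.5-fold. They are also given for members at least 2-fold on both arrays of a transformant, or at least 2-fold apart between transformants without overlap. Other lists are shown by up to 4 genes of largest absolute mean, except the early stress list. There CML38 and TCH2, with means of 0.69 and -0.55, met that rule but were not shown. TCH4, TCH3, ERF6, ACS6, ACS2, SAG12, PHT1;1 and the marker genes were chosen for display after their values were seen. So were the channel values of the early stress and target genes. Members and lists were chosen with earlier results of these data known. Names follow the gene table of assembly TAIR10.1, which held all 36 member loci and 35 under the WRKY name (WRKY1 is ZAP1 there). The build behind the probes is not stated and positions are left out, and promoter motifs were not analysed here.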

Additional observations from a re-analysis of the deposited data

Results flagged for a closer look

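In 9 members both OX17 arrays lay on one side of wild type and both OX7 arrays on the other, which gave each a difference between the transformants. Over all genes, 7.99% were above wild type in OX17 and below it in OX7, and 9.33% the reverse. With 1 plant a side, none of these differences was tested. Above wild type in OX17 and below it in OX7 were WRKY60, whose log2 ratio in OX17 was 1.54 above that in OX7, WRKY70 with a difference of 0.80, WRKY38 with 0.65, WRKY62 with 0.42 and WRKY20 with 0.0945. Below wild type in OX17 and above it in OX7 were WRKY33 with a difference of -1.33, WRKY40 with -1.31, WRKY22 with -1.05 and WRKY72 with -0.11. For WRKY60, WRKY33, WRKY40 and WRKY22 the wild-type channels of the array pairs were also at least 2-fold apart in both dye orientations, with OX17 arrays minus OX7 arrays at -1.30, 2.11, 3.31 and 1.08. The part of the wild-type difference in these ratios cannot be told apart from that of the plants. Groups of 2 arrays allowed no search for outlying samples.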

How the results depend on the processing

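The members' median log2 ratio over both transformants stayed positive under all 18 alternatives, from 0.181 to 0.336, and between 12 and 17 members were higher on all arrays used. The 17 came with OX7 replicate 2 left out, where fewer arrays had to agree. Shares of all genes by direction or fold under the alternatives are not given here, so such member counts are a description. Of single members, WRKY3, WRKY4, WRKY33, WRKY38, WRKY41, WRKY57, WRKY62, WRKY69, WRKY70 and WRKY72, whose means lay between -0.09 and 0.10, changed sign in at least 1 alternative. The OX7 median, 0.0625, was 0.0397 without background correction, 0.0690 with offset 16, 0.0436 with median centring, 0.0730 with scale normalisation, 0.0728 with no filter, 0.0900 with Agilent log ratios, 0.0886 in the authors' deposited table, and 0.0544 to 0.0556 with 1 array left out. The OX17 median, 0.477, was 0.346 without background correction, 0.350 with scale normalisation, 0.643 with Agilent log ratios, and 0.466 to 0.596 with 1 array left out. Without background correction 1 member, WRKY53, was 2-fold higher in OX7, and WRKY75 was not. Median centring left 1 member lower on all arrays and 3 members 2-fold higher in the wild-type channels. Scale normalisation left 3 members 2-fold higher in OX17. Agilent log ratios put 14 members at least 2-fold apart between transformants, no background correction 6 and scale normalisation 6. Over all genes, 79 passed with the 4 arrays taken as independent, 1 with the replicate block and 48 with transformant as a random block (consensus correlation 0.261). Of the members, 0 passed in each fit. An unadjusted limma p under 0.05 was reached by 14 members in each. In the same order of fits, 2888, 2378 and 2365 of 18871 genes reached it. Same-numbered arrays deviated together (r = 0.561 across genes). The number marks dye orientation, not plants, and the cause was not tested. Quantile normalisation of the channels and Agilent signals scaled to the 75th percentile, both chosen after seeing the data, kept the same 5 members 2-fold higher in the wild-type channels. Leaving these 5 out, likewise chosen afterwards, gave a median of 0.261 over both transformants. The causes of these shifts were not tested. With 2 plants, wild-type RNA of unstated origin and 1 probe per gene, differences between plants, between wild types and in hybridisation cannot be separated.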
